A study of Mus musculus with 6 samples.

Results

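Histone genes of the rostral telencephalic primordium were examined in mouse embryos at E11.5 in which Dicer, the enzyme that turns miRNA precursors into mature miRNAs, was present or deleted. The members are the 76 of 55471 counted genes whose symbol starts with Hist1h to Hist4h, H1f, H2af, H2ac, H2bc, H3f, H3c or H4c. A further 5 genes that match these letters but carry -ps in the symbol, a mark of pseudogenes, were left out. All embryos of both genotypes carried floxed Dicer alleles (DicerF/F). In the 3 Rx-Dicer samples the genotype was RxCre-DicerF/F, with Cre driven by Rx regulatory sequences, and the 3 control samples, labelled WT, carried no Cre. The Rx3-Cre line was kept on a CD1 background and the floxed line on C57BL/6. Cre in this line acts mainly in the rostral and ventral telencephalon at this age. The share of cells in the dissected piece that kept Dicer, and whether a library came from 1 embryo or several, are not given in the sources used here.

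Histones package DNA into nucleosomes. Core histones H2A, H2B, H3 and H4 form the particle around which DNA is wound, and linker histone H1 binds where DNA enters and leaves it. Replication-dependent histone genes lie in clusters and are transcribed mainly during S phase, when new DNA needs new nucleosomes. Their mRNAs usually end in a stem-loop in place of a poly(A) tail, and the protein SLBP binds that loop. Replacement variant genes lie outside the clusters, are expressed through the cell cycle and make polyadenylated mRNA. H3f3a and H3f3b, for example, both encode the H3 variant that is deposited outside of replication.

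By name, 60 members are replication-dependent and 16 are H1f, H2af or H3f genes. Of these 60, 50 are on chromosome 13 and 10 on chromosome 3, and they comprise 19 H2A, 17 H2B, 12 H3 and 12 H4 genes. In the annotation 59 lie in the histone clusters. The exception, Hist1h2al, lies elsewhere on chromosome 13 and is counted with the cluster genes by its name. The names do not separate all classes, because the 6 genes H1f1 to H1f6 are newer symbols of linker histone genes inside the chromosome 13 cluster. These 6 are therefore called cluster linker genes below, and the other 10 H1f, H2af and H3f genes are described on their own. Among those 10, H3f3c, H3f4 and H2afy3 are annotated as pseudogenes and H3f3aos as an antisense RNA. The level of replacement histone mRNA among the members therefore rests on H1f0, H1f10, H3f3a and H3f3b.

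The ends of the annotated transcripts separate the classes in part. Among the members the stem-loop was found only in cluster genes, but not in all of them, so its absence does not assign a class. The sequences below show this element in genes to which the results return. The word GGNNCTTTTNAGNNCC, the core of the stem-loop, was found on the sense strand in 41 of the 66 cluster genes, in 0 of the 10 others and in 89 of 55450 genes (0.161%). Of the cluster genes without it, 18 had an annotated transcript of up to 530 bases, and no match says only that these letters are not in the annotated transcript. The most frequent form, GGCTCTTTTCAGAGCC, was found in 24 cluster genes. The letters in capitals are the stem-loop, with 5 bases on either side, from GENCODE transcripts of GRCm38, read 5′ to 3′ on the sense strand.
H4c9 stem-loop (chr13:22040961-22040986, minus strand): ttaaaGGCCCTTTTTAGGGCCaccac
H4c14 stem-loop (chr3:96262934-96262959, minus strand): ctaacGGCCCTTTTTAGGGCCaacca
H3c3 stem-loop (chr13:23745042-23745067, minus strand): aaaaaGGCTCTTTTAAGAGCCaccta
H1f4 stem-loop (chr13:23621777-23621802, minus strand): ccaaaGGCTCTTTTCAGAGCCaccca
H2ac19 stem-loop (chr3:96239779-96239804, minus strand): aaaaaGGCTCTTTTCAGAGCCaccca

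H4c9 and H4c14 were the only cluster genes with the form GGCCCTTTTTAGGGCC. A poly(A) signal, AATAAA or ATTAAA within the last 50 bases of the transcript, was found in 14 cluster genes, 10 of which also had the stem-loop, and in 5 of the 10 other members. H4c9 and H1f2 had both elements, whereas H1f10, H1f0 and H2bc21 had the signal alone. It is shown in capitals in the last 30 bases of these transcripts.
H1f10 poly(A) signal (chr6:87980421-87980450, minus strand): ctggggcgcAATAAAcggttccaaccttga
H1f0 poly(A) signal (chr15:79030475-79030504, plus strand): aactttaaAATAAAactggaaaggaaaaaa
H4c9 poly(A) signal (chr13:22040636-22040665, minus strand): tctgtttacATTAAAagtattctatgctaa
H2bc21 poly(A) signal (chr3:96223709-96223738, plus strand): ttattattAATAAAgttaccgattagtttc

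Total counts on genes ranged from 34471501 to 48373468 per library, and 3 counts, the limit that a count of 0 allows, corresponded to 0.0620 to 0.0870 counts per 1e+06 counts on genes (CPM). All 13 telencephalic progenitor markers were present, with at least 138 normalised counts in every library. DESeq2 called 3 of them, Fabp7 (log2 fold change -0.76, adjusted p = 0.0307) and Pax6 (-0.43, adjusted p = 0.0127) lower and Six3 (1.27, adjusted p = 6.27e-06) higher, and the part of these shifts in the histone levels was not tested. Dicer1 had 6355, 7070 and 6270.4 normalised counts in the controls against 4777, 7002 and 4644 in the Rx-Dicer libraries (log2 fold change -0.26 ± 0.17 SE, DESeq2 adjusted p = 0.567), so the library labelled Rx-Dicer 2 was within the control range. Reads of the exons outside the floxed segment count towards this total. Summed erythroid markers were high in control 2 (22990.0 CPM) and in Rx-Dicer 3 (22792 CPM) and lay between 8640 and 11179 CPM in the other libraries. Summed microglia and macrophage markers were 30.5 to 36.9 CPM in controls and 126, 36.2 and 73.5 CPM in Rx-Dicer 1, 2 and 3, and 2 of their 8 genes were called higher.

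The members took 0.248 to 0.281% of all counts, and 4 genes outside the clusters made up most of that share. Histone genes under symbols that the pattern does not match, described below, are not in it. Among these, H2az1 alone had a mean of 829 CPM over the 6 libraries. H1f0, H1f10, H3f3a and H3f3b together took 92.1 ± 0.24% of the counts on members in controls and 91.7 ± 0.49% in the mutants (mean ± SD over the 3 libraries of each genotype). The 66 cluster genes took 6.45 ± 0.20% and 6.92 ± 0.47%. Per kilobase of annotated exon, the mean level over the 6 libraries was 308 CPM for H1f0, 276 CPM for H3f3b, 230 CPM for H3f3a and 152 CPM for H1f10. H4c9 was the highest cluster gene on this scale, at 24.7 CPM per kilobase, followed by Hist1h2ao at 14.9. The sources used here do not say whether poly(A) RNA was selected, so these levels do not compare the amounts of tailed and tailless mRNA in the cells.

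A count was found in at least 1 library for 72 members. The 4 members at 0 in all 6 libraries were H2ac1, H2ac18, H3c14 and H1f7. Every 100-base window of H2ac18 and of H3c14 occurred also in other transcripts, and reads that fit several places were not counted. The 0 of these genes therefore does not show that they were silent. Another 8 had a mean under 10 normalised counts, among them H1f6, H1f8 and H2bc1, which are known from germ cells. The remaining 64, comprising 52 cluster core genes, 5 cluster linker genes and 7 others, are described by their levels.

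In Rx-Dicer samples 2 histone genes were called lower, the linker gene H1f10 and the cluster gene H4c9, and none was called higher. DESeq2 called 2 of the 62 members it tested (3.23%) at the threshold used by the study (adjusted p under 0.05 and a log2 fold change beyond 0.32 in either direction), against 2.93% of all 17127 genes tested, so the share called was close to the background. Both calls were lower, a direction in which 1.18% of all genes were called, and 0 members were called higher against 1.75% of all genes. At an unadjusted p under 0.05, 3 members were lower and 2 higher by DESeq2, and 3 were lower and 1 higher by edgeR's quasi-likelihood test. These are 7.81% and 6.25% of 64 members, against 12.7% and 12.9% of all genes by the same tests. edgeR called 0 members, and 8 of 17954 genes (0.0446%), all higher.

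H1f10 encodes a linker histone of the variant class and had the smallest adjusted p of the members. It (ENSMUSG00000044927, GRCm38 chromosome 6, 87980421 to 87981637, minus strand) had 8931, 8938 and 8976 normalised counts in controls against 6567, 6661 and 6774 in Rx-Dicer samples. The libraries of a genotype lay close together and the genotypes did not overlap. Controls averaged 8948 ± 24.03 and mutants 6667 ± 104 (SD over 3 libraries each), which is 0.745-fold of the control (log2 fold change -0.42 ± 0.10 SE, DESeq2 adjusted p = 0.00192). The call held in all 15 other DESeq2 fits, including each that left out a library, with adjusted p from 2.67e-05 to 0.0299. By edgeR the adjusted p was 0.0829, above the threshold. Over the 3 Rx-Dicer libraries, microglia markers varied between 36.2 and 126 CPM and erythroid markers between 8640 and 22792 CPM. The part of cell composition in the level of H1f10 was not tested. In dissected tissue, fewer cells that express a gene and less RNA per cell cannot be told apart.

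H1f0 encodes H1.0, the linker variant known to build up in cells that stop dividing and differentiate. It (ENSMUSG00000096210, GRCm38 chromosome 15, 79028450 to 79030504, plus strand) had 27581, 28685 and 28838 normalised counts in controls against 24476.5, 24717 and 25991 in Rx-Dicer samples. The values did not overlap, but the difference was small and did not pass the test (log2 fold change -0.18 ± 0.10 SE, DESeq2 adjusted p = 0.445). Its 95% interval ran from -0.37 to 0.01. Summed neuron markers overlapped between the genotypes, at 2391, 1805 and 1916 CPM in controls and 2258, 1713 and 1551 CPM in mutants. This sum holds genes that moved in both directions, since DESeq2 called 3 of its 14 genes, Nefl (log2 fold change 1.52) and Nefm (0.74) higher and Stmn3 (-0.61) lower. Of the counts on H1f0 and H1f10, a ratio that needs no scaling between libraries, H1f10 took 24.5, 23.8 and 23.7% in controls against 21.2, 21.2 and 20.7% in Rx-Dicer samples. These shares did not overlap either, so H1f10 was lower also relative to H1f0. This ratio was formed after the values of both genes had been seen and is given without a test.

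**Figure D1:**
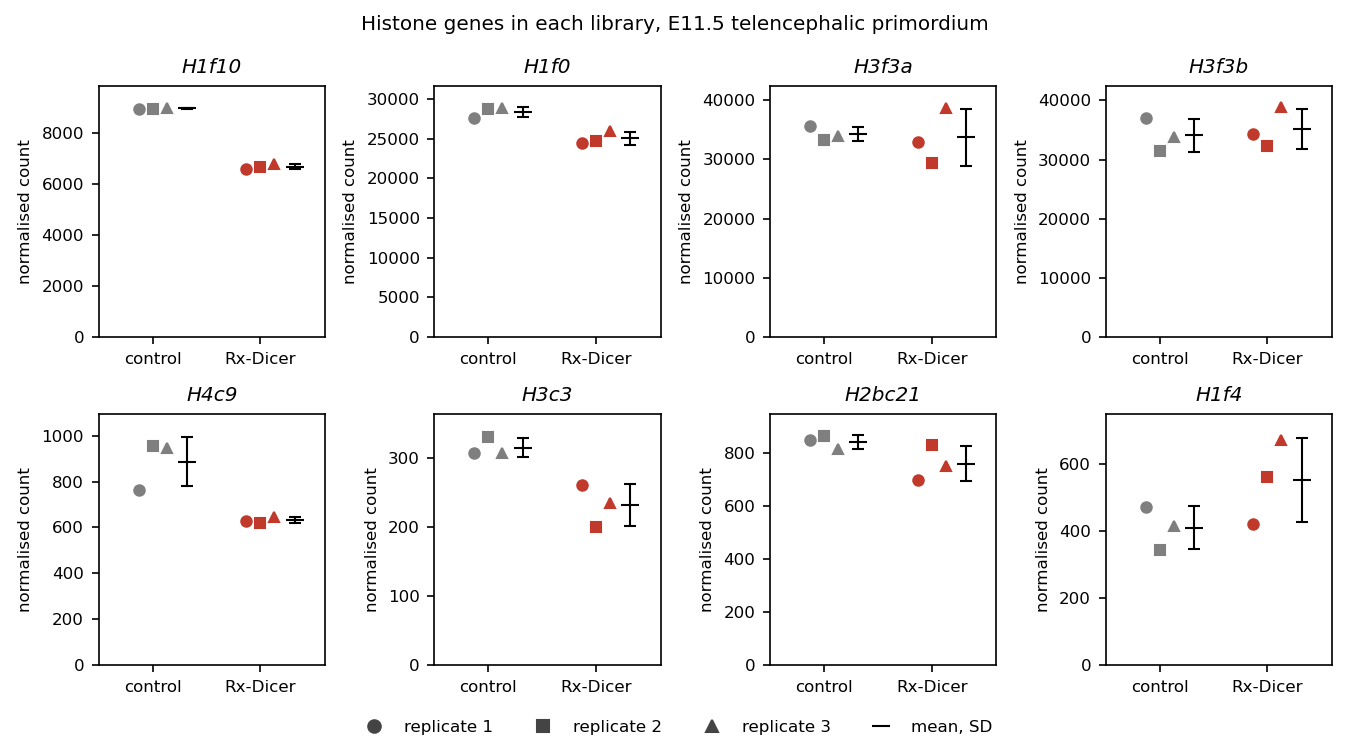
Normalised counts (y axis, from 0) of 8 histone genes in the 3 control and 3 Rx-Dicer libraries (x axis). Symbols are replicates and black marks are means with SD. H1f10 and H4c9, the 2 genes called, lie lower in every Rx-Dicer library than in every control, H1f0 and H3c3 also separate without passing the test, and the genotypes overlap for H3f3a, H3f3b, H2bc21 and H1f4.

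H3f3a and H3f3b, which encode the same replacement H3 protein from different chromosomes, were the most abundant members by CPM and did not separate the genotypes. H3f3a had 35606, 33344 and 33965 normalised counts in controls against 33018, 29330.1 and 38755 in Rx-Dicer samples, so the Rx-Dicer libraries lay on both sides of the controls. Its log2 fold change was -0.03 ± 0.13 (SE, DESeq2 adjusted p = 0.982), with a 95% interval from -0.28 to 0.23. H3f3b had 37037, 31399.6 and 33835 normalised counts in controls against 34399.6, 32295 and 38916 in Rx-Dicer samples. Its log2 fold change was 0.05 ± 0.12 (SE, adjusted p = 0.958), with an interval from -0.20 to 0.29. For both genes the interval leaves out a change as large as that of H1f10 in either direction. H3f3b took 51.0, 48.5 and 49.9% of the counts on the pair in controls against 51.0, 52.4 and 50.1% in Rx-Dicer samples.

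The remaining 3 genes of this class with a mean of at least 10 were a pair of pseudogenes and an antisense RNA. H3f3c, a processed copy of an H3f3 gene, shared 56.7% of its 100-base windows with other transcripts, and its genotypes overlapped (log2 fold change -0.13 ± 0.14 SE). H3f3aos, on the strand opposite H3f3a, had 62.3, 54.0 and 48.8 normalised counts in controls against 31.7, 48.9 and 42.8 in Rx-Dicer samples, with overlap. H2afy3 lay between 10.99 and 22.4 normalised counts in all libraries and overlapped as well.

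**Figure D2:**
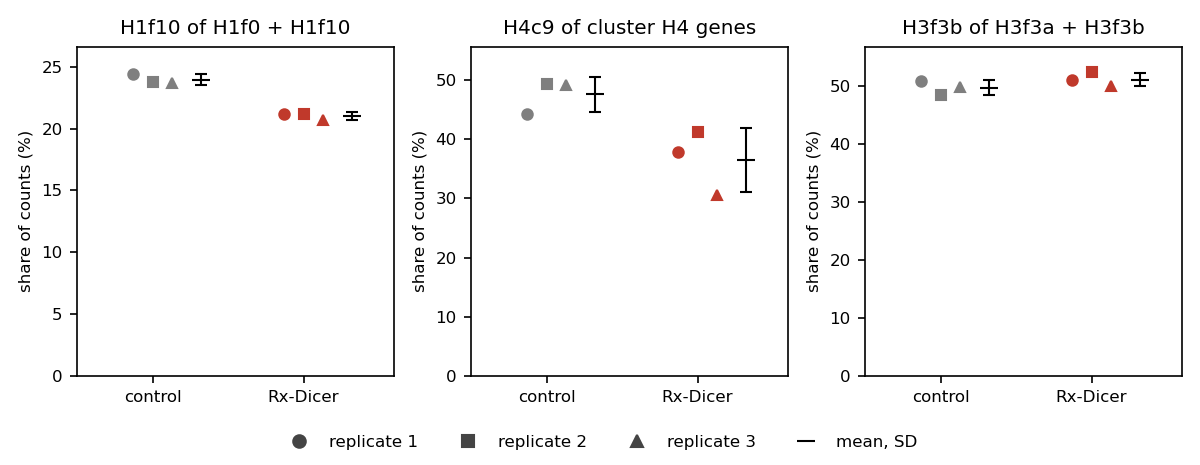
Share of counts in percent (y axis, from 0) in the control and Rx-Dicer libraries (x axis) for H1f10 of H1f0 and H1f10, H4c9 of the 12 cluster H4 genes, and H3f3b of H3f3a and H3f3b. Symbols are replicates and black marks are means with SD. The first and the second share are lower in every Rx-Dicer library, and the third overlaps. H1f10 and H4c9 had been called lower in the same counts.

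H4c9, which encodes H4 and is known in older symbols as Hist1h4i, was the cluster gene called. It (ENSMUSG00000060639, GRCm38 chromosome 13, 22040636 to 22041362, minus strand) had 762, 955 and 945 normalised counts in controls against 629.5, 620.5 and 645 in Rx-Dicer samples, without overlap. Controls averaged 887.5 ± 109 and mutants 632 ± 12.7 (SD over 3 libraries each), which is 0.711-fold of the control (log2 fold change -0.49 ± 0.15 SE, DESeq2 adjusted p = 0.0379). The direction was the same in all 17 alternatives. These include the main fit at an adjusted p under 0.1, where a call must hold, and with it the call held in 6. It was lost without control 2 (adjusted p = 0.226), control 3 (0.180), Rx-Dicer 1 (0.0651), Rx-Dicer 2 (0.0705) or Rx-Dicer 3 (0.0794), with edgeR (0.200), and after the length and GC correction, and over all alternatives the adjusted p ran from 0.000388 to 0.495.

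H4c9 stood against most of its family. It alone held 47.6 ± 2.9% of the counts on the 12 cluster H4 genes in controls and 36.6 ± 5.5% in the mutants (mean ± SD of 3 libraries each), with 44.3, 49.4 and 49.2% against 37.9, 41.2 and 30.5%. H4c9 had already been called lower in the same counts, so this share is a description without a test. Of the 12 H4 genes, 10 had a log2 fold change above 0 and the family median was 0.28. Besides H4c9, H4c2 was below 0 (-0.11). The median log2 difference of the family from the control mean was 0.08 in Rx-Dicer 1, -0.09 in Rx-Dicer 2 and 0.68 in Rx-Dicer 3. H4c4, the second by CPM, had 231, 171 and 176 normalised counts in controls against 194, 166 and 277 in Rx-Dicer samples. H4c12, the third, had 132, 154 and 146 against 148, 115 and 206. For both, Rx-Dicer 3 was the highest of the 6 libraries and the others overlapped.

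H3c3 was the highest cluster H3 gene and moved in the direction of H4c9. It had 307, 329.99 and 307 normalised counts in controls against 259.9, 199.7 and 234 in Rx-Dicer samples, without overlap, but the difference did not pass the test (log2 fold change -0.44 ± 0.19 SE, DESeq2 adjusted p = 0.220). H3c6, next in the family, had 169.8, 197 and 226 against 262, 193 and 325. H3c10 had 127, 106 and 81.7 against 104, 80.5 and 144. In H3c6 and H3c10 the genotypes overlapped and Rx-Dicer 3 was the highest library.

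The H2B family was led by H2bc21, a gene of the chromosome 3 cluster whose annotated transcript has a poly(A) signal and no stem-loop match. It had 848, 865 and 813 normalised counts in controls against 696, 828 and 751 in Rx-Dicer samples, with overlap (log2 fold change -0.15 ± 0.14 SE, DESeq2 adjusted p = 0.770). H2bc4 had 319, 308 and 260.2 against 303, 223 and 354. H2bc14 had 132, 123.2 and 126 in controls, a narrow range, against 121, 68.3 and 204 in Rx-Dicer samples, which lay on both sides of it. The median of the 15 H2B genes was 0.21, with 10 above 0 and 0 called.

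The H2A genes were the least certain family. A median of 76.2% of the 100-base windows of an H2A gene occurred also in other transcripts. The median was 40.1% for H2B, 49.7% for H3, 25.4% for H4 and 0.396% for cluster H1 genes. Reads that fit several places were not counted, but the share of windows does not measure the reads lost. H2ac19, with all windows shared, still had counts. Hist1h2ao, the highest by CPM, had 274, 291 and 301 normalised counts in controls against 311, 331 and 300.4 in Rx-Dicer samples, and shared 92.7% of its windows. Hist1h2ap had 191, 265 and 268 against 189, 247 and 215. H2ac8 had 137, 120.2 and 155 against 105, 96.8 and 136. The genotypes overlapped for all 3, and 0 of the 14 H2A genes were called.

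The extremes of fold change lay among weakly covered genes. H2ac19 had 10.99, 9.17 and 10.3 normalised counts in controls against 24.9, 18.3 and 32.3 in Rx-Dicer samples, without overlap, a log2 fold change of 1.31 ± 0.60 (SE) that did not pass the test (DESeq2 adjusted p = 0.289). All of its windows occurred in other transcripts. H2ac20 (0.57 ± 0.39 SE) and H4c1 (0.52 ± 0.47 SE) followed, and both overlapped. At the low end, next to H4c9, H2ac14 had 39.1, 41.8 and 45.1 normalised counts in controls against 22.3, 32.6 and 32.3 in Rx-Dicer samples, and H2ac11 had 37.9, 35.6 and 43.2 against 25.7, 28.5 and 31.4. Neither overlapped nor passed the test, and H2ac14 is annotated as a pseudogene.

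Over all 64 members with a mean of at least 10, 6 (9.38%) lay lower in every Rx-Dicer library than in every control, against 10.5% of the 17770 genes at that level. Higher in every Rx-Dicer library were 2 (3.13%), against 8.47%. The lower ones were H1f10, H1f0, H4c9, H3c3, H2ac14 and H2ac11, and the higher ones H2ac19 and H2ac7. Neither share stood above that of all genes.

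**Figure D3:**
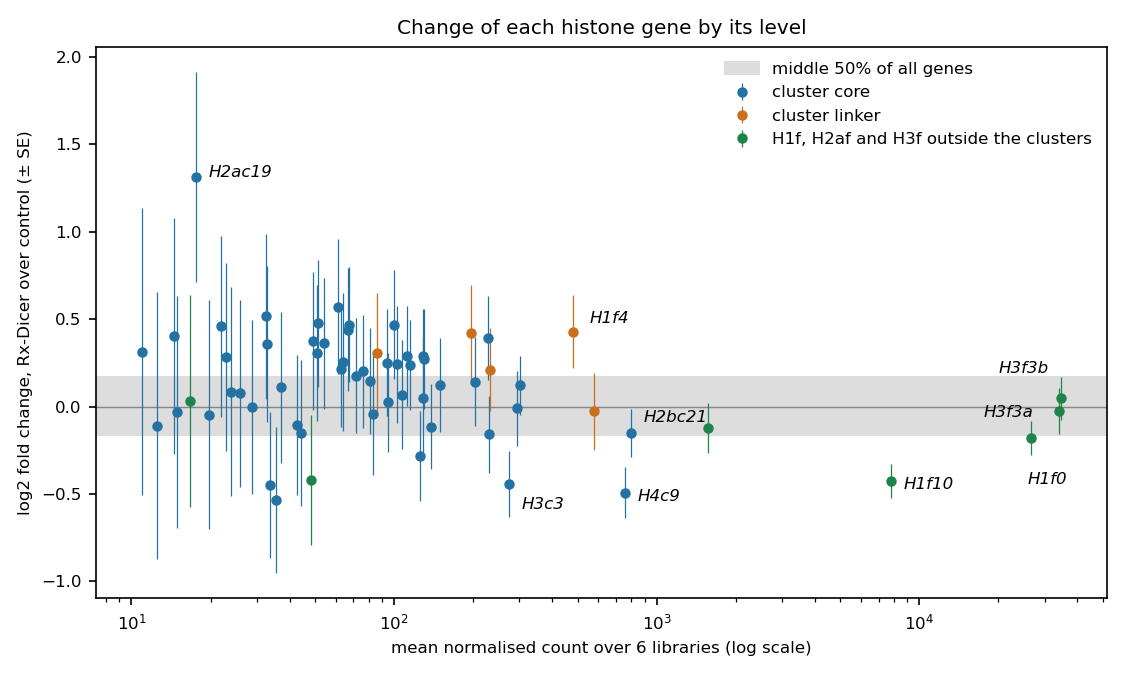
Log2 fold change of each of the 64 members (y axis, Rx-Dicer over control, bars are SE) by its mean normalised count over 6 libraries (x axis, log scale), with the middle 50% of all genes in grey. The bars narrow with level, most cluster genes lie towards low counts and above 0, and H4c9 and H1f10 lie below the grey band with short bars.

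The cluster genes as a class did not separate the genotypes. The summed level of the 60 core genes was 139.8, 139 and 142 CPM in controls against 137, 127 and 159.8 CPM in Rx-Dicer samples, so the Rx-Dicer libraries lay both below and above a narrow control range. The log2 ratio of the genotype means was 0.01. The sum of the 6 linker genes was 37.3, 32.5 and 32.7 CPM in controls against 35.3, 37.0 and 48.0 CPM in Rx-Dicer samples, with overlap. The sum of the 10 H1f, H2af and H3f genes outside the clusters was 2634, 2401 and 2559.5 CPM against 2412, 2314 and 2575 CPM, and their log2 ratio was -0.06.

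Although few cluster genes passed a test, their fold changes leaned to one side. Among the 52 core genes with a mean of at least 10, 36 had a log2 fold change above 0 and the median was 0.16, and with the 5 linker genes 40 of 57 were above 0 and the median was 0.20. After the length and GC correction 41 of the 52 core genes were above 0 with a median of 0.25, where the median of all genes was -0.05. Over all 17770 genes at that level 50.1% were above 0 and the median was 0.00044. The 7 members outside the clusters had a median of -0.13, with 2 above 0. By the classes of the names, where H1f1 to H1f5 count with the replacement genes, the latter median was 0.0035.

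Over the 57 cluster genes together, this lean rested on Rx-Dicer 3. Rx-Dicer 3 was the highest of the 6 libraries for 39 of the 57 cluster genes (68.4%), against 16.4% of all genes, and it was the lowest for 1. The library labelled Rx-Dicer 2 was the lowest for 20 of them (35.1%), against 22.6% of all genes. The median difference of the 57 genes from the control mean was 0.52 on the log2 scale in Rx-Dicer 3, 0.07 in Rx-Dicer 1 and -0.06 in Rx-Dicer 2, while the controls lay between -0.03 and 0.05. Without Rx-Dicer 3 the median fold change of the 57 genes was -0.01 and 28 were above 0, and without Rx-Dicer 2 it was 0.32 with 47 above 0. H4c9 and H3c3 were lower in Rx-Dicer 3 than in every control although most of their cluster was higher there. They were not alone in this, since H2bc21, H2ac14, H2ac11 and Hist1h2bp were also lower there than in every control.

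Other measures of Rx-Dicer 3 did not all stand apart. Its erythroid sum of 22792 CPM was near that of control 2, whose cluster median was -0.01. Rn7sk, a short RNA that lacks a poly(A) tail, had 1504 normalised counts there, within the control range of 1388 to 1535, while Rx-Dicer 1 had 2034 and Rx-Dicer 2 had 1166. Its small nucleolar RNAs summed to 29.4 CPM, within the control range of 28.5 to 34.4 CPM. Its endothelial sum, 91.5 CPM, was the lowest of the 6, against 164 to 170 CPM in controls and 209 and 222 CPM in Rx-Dicer 1 and 2. The part of these differences in the histone levels was not tested.

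**Figure D4:**
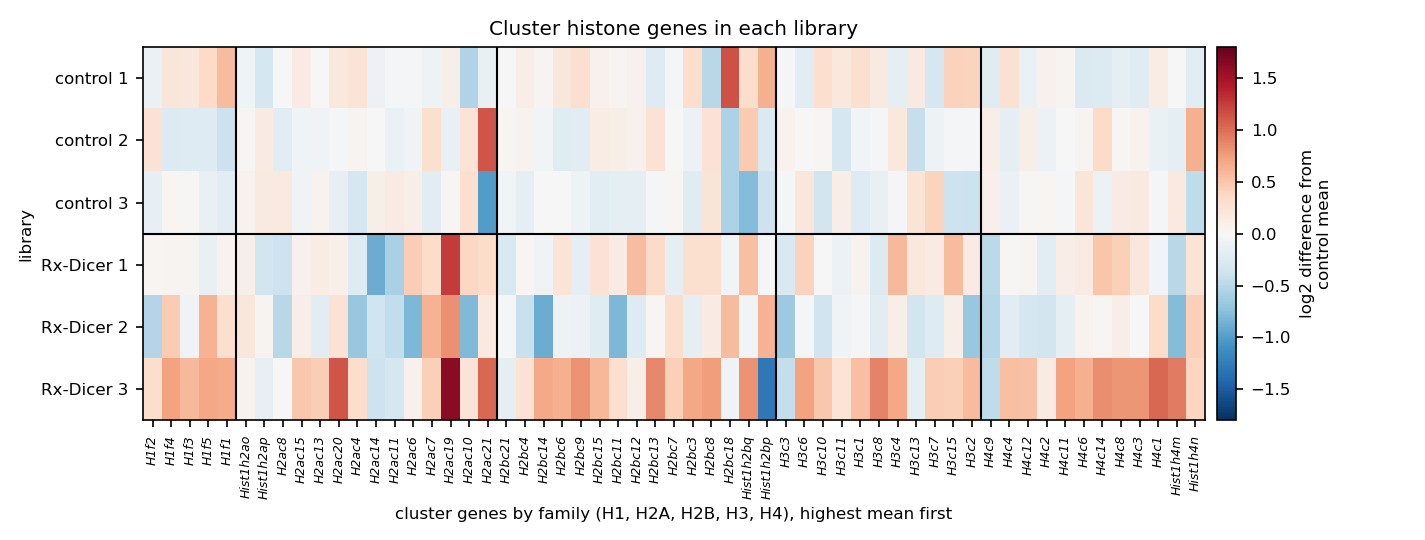
Log2 difference of normalised counts (with 0.5 added) from the control mean for cluster genes with a mean of at least 10 (x axis, by family and level) in each library (y axis). Red is higher and blue lower than the control mean. The Rx-Dicer 3 row is mostly red. Genes that are blue in all 3 Rx-Dicer rows include H4c9, H3c3, H2bc21, H2ac14 and H2ac11.

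Of the 5 cluster linker genes, 4 had a log2 fold change above 0 and the median was 0.30. They shared 0 to 5.07% of windows with other transcripts, apart from H1f4 at 24.7%. Their median difference from the control mean was 0.05 in Rx-Dicer 1, 0.28 in Rx-Dicer 2 and 0.66 in Rx-Dicer 3, against 0.11, -0.10 and 0.48 for the core genes, so Rx-Dicer 2 lay above the control mean for linker genes and below it for core genes. Without Rx-Dicer 3 the linker median was 0.12, with 3 of 5 above 0. H1f4, which encodes an abundant somatic H1, had 471, 343 and 416 normalised counts in controls against 422, 561 and 673 in Rx-Dicer samples, with overlap (log2 fold change 0.43 ± 0.21 SE, DESeq2 adjusted p = 0.342). H1f2 had 531, 687 and 521 against 592, 400.4 and 715, and its libraries overlapped widely (-0.03 ± 0.22 SE). H1f5 (0.42 ± 0.28 SE), H1f1 (0.30 ± 0.34 SE) and H1f3 (0.21 ± 0.24 SE) overlapped as well. Rx-Dicer 3 was the highest library for all 5.

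**Figure D5:**
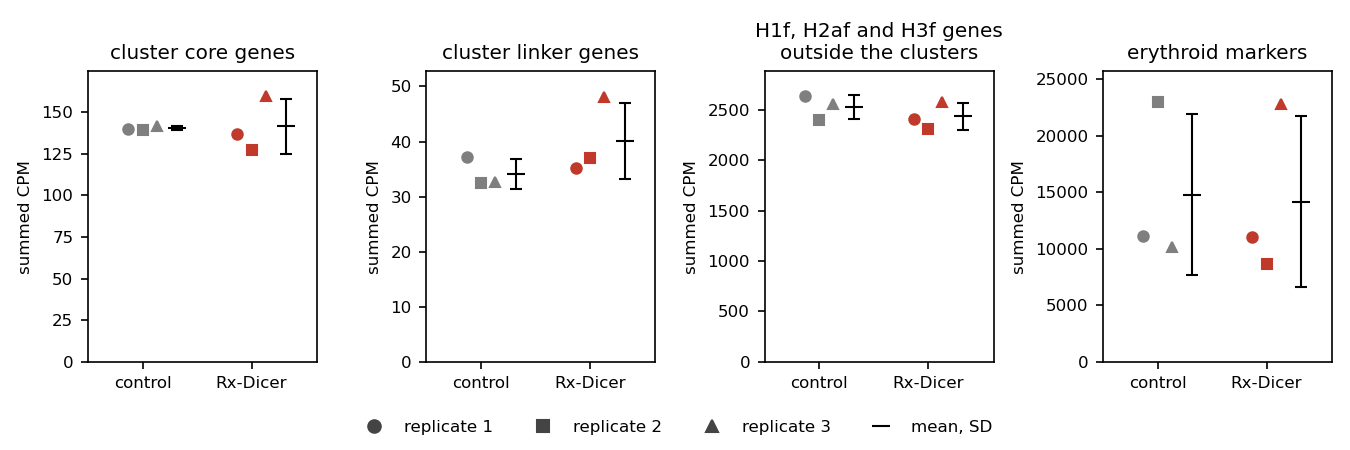
Summed CPM (y axis, from 0) of the 60 cluster core genes, the 6 cluster linker genes, the 10 members outside the clusters and the erythroid markers in the control and Rx-Dicer libraries (x axis). Symbols are replicates and black marks are means with SD. Rx-Dicer 3 is the highest library for both cluster sums, and control 2 and Rx-Dicer 3 share the high erythroid level.

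Depth limited what could be seen in the clusters. The median of the 57 genes had 75.8 normalised counts, and the 95% interval of a log2 fold change extended a median of 0.66 to either side, against 0.25 for the 7 members outside. A 2-fold change in either direction lay outside the interval for 34 of the 57. Of the 11 cluster genes with a poly(A) signal near the end, 6 had a log2 fold change above 0 and the median was 0.27, and of the 46 without it 34 were above 0 and the median was 0.19. Of the 19 with at most 25% of windows shared, 15 were above 0 with a median of 0.27, and of the 38 others 25 were above 0 with a median of 0.12. The differences between these groups were not tested.

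Promoters of the families differed in their motifs, as read from RefSeq promoters of 300 bases on GRCm38.p6 that were given for 59 members. The octamer ATTTGCAT, searched on both strands, was found in 7 of 12 H2B and 6 of 14 H2A promoters and in 0 of the 25 H1, H3 and H4 promoters of the clusters, against 1.97% of all promoters. CCAAT was found in all 42 H1, H2A, H2B and H3 promoters of the clusters and in 3 of 9 H4 promoters, against 41.1% of all. Such matches describe letters and not binding.

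Genes that process histone mRNA or carry histones gave no calls in the fit to all libraries. Of 15 such processing genes listed, 13 were found by symbol, and DESeq2 and edgeR each called 0, with 2 and 3 at an unadjusted p under 0.05. The shares of all genes under that p, 12.7% by DESeq2 and 12.9% by edgeR, are the background for this count and for those of the lists that follow. Npat, the coactivator of histone gene transcription in S phase, had 1655, 1692 and 1670.2 normalised counts in controls against 1859, 2125 and 2148 in Rx-Dicer samples, without overlap (log2 fold change 0.29 ± 0.12 SE, DESeq2 adjusted p = 0.207). Lsm10, a subunit of the U7 particle that cuts histone pre-mRNA, had 572, 597 and 602 against 499, 368 and 412, also without overlap (-0.47 ± 0.17 SE, adjusted p = 0.109). Without Rx-Dicer 1 both passed, with log2 fold changes of 0.35 and -0.60 and DESeq2 adjusted p of 0.0220 and 0.00606. That fit called more genes of all kinds, 637 of 14988 tested, against 502 of 17127 in the fit to all libraries. Npat and Lsm10 were named after their values had been seen.

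Of the 21 chaperone and acetylation genes, DESeq2 and edgeR called 0, with 1 and 2 at an unadjusted p under 0.05, and the median log2 fold change was -0.07. Of the 25 S phase genes both called 0, with 1 each at an unadjusted p under 0.05, and the median was -0.03. Without Rx-Dicer 1, Ccne2, a cyclin of S phase entry, was called higher (log2 fold change 0.56, DESeq2 adjusted p = 0.00406). This is the same fit that called 637 of 14988 genes. Of the 18 genes of G2 and mitosis both called 0, with 0 at an unadjusted p under 0.05, and the median was -0.08.

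Histone genes under symbols that the pattern does not match were read beside the members. In these files the variants H2A.X and H2A.Z are named H2ax, H2az1 and H2az2, and a set of 10 such genes, added after the data had been seen, also held Cenpa, both macroH2A genes, H2aj, H2aw, H2bu2 and H4f16. In this set 2 genes were called, both lower, against 1.18% of all genes called lower, and 9 had a log2 fold change below 0, where 50.1% of all genes were above 0. With 10 genes chosen after the data had been seen, these counts are a description. H2ax, the variant phosphorylated at DNA breaks, had 12547, 13375 and 12613 normalised counts in controls against 9988, 9739 and 10773 in Rx-Dicer samples, without overlap (log2 fold change -0.34 ± 0.11 SE, DESeq2 adjusted p = 0.0471). H2az2, an H2A.Z gene, had 11574, 10707 and 10884 against 8738, 8266 and 9126, also without overlap (-0.34 ± 0.11 SE, adjusted p = 0.0437). Both calls were close to the threshold and held in 7 of the 17 alternatives for H2ax (adjusted p from 0.0106 to 0.535) and in 8 for H2az2 (0.0113 to 0.207). Each count includes the main fit at an adjusted p under 0.1, where a call must hold. With edgeR neither passed (adjusted p = 0.175 for each). The call of H2ax was lost without control 2, control 3 or Rx-Dicer 2, with log2 fold changes of -0.31, -0.35 and -0.30, and that of H2az2 also without control 1 (-0.31). H2az1 had 33200.0, 44160.0 and 40480.0 against 34651, 26637 and 30935, with overlap (-0.35 ± 0.15 SE, adjusted p = 0.217). Cenpa, the histone of centromeres, had 6525, 8098 and 7973 against 5438, 6165 and 5676, without overlap, but did not pass (-0.39 ± 0.13 SE, adjusted p = 0.0746).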

How the data were processed

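Per the file headers and labels, the deposited values were raw counts per gene in 2 files for each of 6 samples. The authors trimmed reads with Trim Galore (0.6.5), aligned them to GRCm38.p6 with HISAT2 and counted with HTSeq (0.12.4) in union mode on the reverse strand, which leaves out reads that fit several places or genes. The files of a sample agreed nearly within sampling noise (chi-square per degree of freedom 1.13 to 1.52, against 22.5 to 32.6 between samples) and were summed. Tallies of uncounted reads stayed out of totals. These counts were compared with the DESeq2 Wald test (1.42.0, R 4.3.3), the study's tool, on all genes above 0, with Benjamini-Hochberg adjustment. Alternatives included edgeR's quasi-likelihood test (4.0.16), other scalings and filters, either file alone, a replicate block, a length and GC correction and each sample left out. An adjusted p under 0.1 on the main fit was counted among them, although a call at 0.05 cannot be lost there. The DESeq2 and edgeR fits were tested on simulated data. The members and gene lists were chosen with earlier results of these data known. Named genes were all called members, every H1f, H2af or H3f gene with a mean of at least 10 normalised counts, the 3 highest by CPM of each core family, the 3 highest and 3 lowest fold changes of replication-dependent genes at that mean, Dicer1 and called genes of the processing and chaperone lists. P-values measure the spread between these samples, and floors cover counting error only.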

Additional observations from a re-analysis of the deposited data

Results flagged for a closer look

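Groups of 3 libraries are too small for a test of outlying samples. A signal above the controls outside the genes compared was seen for reads that aligned in no annotated gene, with a median of 8.32% in Rx-Dicer libraries (7.54, 10.7 and 8.32%) against 7.87, 6.79 and 7.19% in controls, and 1 Rx-Dicer library lay within the control range. H2af-ps, a pseudogene left out of the members, had a median of 0.0413 CPM in Rx-Dicer libraries and no counts in controls, a level below that of 3 counts in every library.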

How the results depend on the processing

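Of 17 alternatives, the count of 2 histone genes called fell to 0 with edgeR and to 1 without independent filtering, with the first file alone, with the replicate block, with the length and GC correction and with both of these, and was 0 higher throughout. It was 1 to 2 when a library was left out. The replication-dependent count of 1 lower gene was 0 in each of those settings and 0 to 1 with a library left out, and the replacement count of 1 was 0 with edgeR alone. With the 10 histone genes outside the pattern added, 4 were called. The median log2 fold change of replacement genes moved from 0.0035 to -0.13 without the cluster linker genes. With a library left out, 0 to 2 histone mRNA processing genes and 0 to 1 S phase genes were called, the higher values without Rx-Dicer 1. No sign was seen that replicate numbers pair the samples. Correlations of same-numbered samples ran from -0.14 to 0.19, and those of differently numbered samples from -0.18 to 0.17. The study describes the controls as littermates, and so few libraries cannot exclude pairing by litter. The replicate block gave 314 calls over all genes in place of 502. Of 510 results for 30 named genes, 31 changed sign, none of them called: H1f2 (second file 0.084, length and GC 0.074, with the block 0.061, with a library left out -0.22 to 0.18), H2bc4 (total-count scaling 0.0041, second file 0.050, length and GC 0.072, with the block 0.058, library left out -0.16 to 0.16), H2bc14 (first file -0.033, block -0.080, library left out -0.42 to 0.36), H2afy3 (first file -0.0088, library left out -0.18 to 0.32), H3f3b (length and GC -0.031, with the block -0.034, library left out -0.032 to 0.11), H3f3c (length and GC 0.033, with the block 0.028) and, with a library left out, H3f3a (-0.14 to 0.070), H3c10 (-0.18 to 0.25), H1f3 (-0.015 to 0.34), H4c12 (-0.12 to 0.30) and H4c4 (-0.093 to 0.29). The cause of these changes was not tested. Depth limits the cluster genes, as given with their intervals.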
